A study of Mus musculus with 3 samples.

Results

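Genes for the matrix metalloproteinases (MMPs), the ADAM and ADAMTS proteases, the ADAMTS-like proteins and the tissue inhibitors of metalloproteinases (TIMPs) were followed in cultured mouse aortic endothelial cells exposed to an oxidant. The genes were chosen by name: every listed protein-coding gene whose symbol begins with Mmp, Adam or Timp and a digit, or with Adamts. This choice was made with earlier results of these data known. The listing itself required a minimum of reads, as given below, so expression entered the choice through the listing. The name rule gave 47 of the 18287 listed genes, of which 13285 were protein-coding. They comprised 13 MMPs, 15 ADAMs, 11 ADAMTS proteases, 4 ADAMTS-like genes and 4 TIMPs. A further 36 mouse protein-coding genes with such names, among them Mmp7, Mmp8, Mmp9 and Adamts13, were not analysed here.

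MMPs are zinc-dependent proteases, most of them secreted as inactive proenzymes, that cleave collagens, laminins and other matrix proteins once plasmin, furin or another MMP has removed their prodomain. ADAMs sit in the plasma membrane and release the outer parts of growth factors, adhesion molecules and receptors, whereas ADAMTS proteases are secreted and cut proteoglycans such as versican or process procollagens and fibrillins. TIMPs block the active site of these enzymes. In the vessel wall the balance of both sides shapes the endothelial basement membrane, sprouting and the shedding of endothelial surface receptors.

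The cells were bought from a commercial supplier and grown in its medium, and strain, age, passage and the number of donor animals are not given in the sources used here. The control library is labelled only as control. The glucose oxidase library came from cells given 5 mU/mL of this enzyme, which produces hydrogen peroxide while it oxidises glucose, with an exposure of 30 min. The combined library came from cells given the same exposure together with 0.2 mM Et2HOBA (ethyl-2-hydroxybenzylamine) over 24 h, a scavenger of the adduct-forming lipid products of oxidation. Which agent was given before the other is not stated, and a library with Et2HOBA alone was not analysed here. Whether the 3 libraries were collected at the same time is not stated either. Each group had 1 library of polyadenylated RNA, so nothing below is checked by replicates and conditions could not be tested against each other. Triplets of values are always in the order control, glucose oxidase alone, and Et2HOBA added.

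The 3 libraries held 35005089 to 40212212 reads, and 0.618 to 0.818% of these fell on the 47 genes. The table listed only genes with at least 5 reads in 1 library. Of the 47, 34 had at least 100 reads in 1 library, 42 had a mean normalized count of at least 10, and 6 had 15 reads or fewer in every library. All 8 endothelial markers looked at were present in the control library, from 5936 reads (Erg) to 78258 reads (Tie1), and their summed reads were 310342, 188857 and 192686. Their summed normalized counts were 300724, 195633 and 185523. Log2 ratios to control were -1 or lower for 3 of the 8 after glucose oxidase (median -0.59) and 4 with Et2HOBA (median -1.01). No endothelial marker was higher by that much. Over all protein-coding genes, 9.30 and 16.6% differed by that much in either direction. Of the smooth muscle list, 5 of 6 markers were analysed, with summed reads of 3588 to 5014 that came almost wholly from Smtn, while Acta2 had 8 to 18 reads, Tagln 4 to 9 and Des 8 to 9. Myh11 of that list had 19, 35 and 73 reads and log2 ratios to control of 0.70 and 1.50, and was the only one of the 5 past the limit of 1 used below. Of the fibroblast list, 2 of 6 were analysed: Pdgfra had 107, 1325 and 2821 reads, and Col1a1 had 28, 30 and 23. Of the leukocyte and macrophage list, 3 of 6 were analysed, with summed reads of 8407, 17155 and 27895 in the same order. Cd68 gave most of them, with 8215, 17067 and 27799, whereas Csf1r had 6, 12 and 10. Lyz2 was lower in both treated libraries, with 186, 76 and 86 reads and log2 ratios to control of -1.10 and -1.04. The part of other cell types in the differences below was not tested, and in such bulk RNA fewer cells of a type and less RNA per cell cannot be told apart.

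Levels are given as normalized counts per kb of exon, which allows a comparison between genes. Timp2 and Timp3 were the most abundant of the 47 in every library. Timp2, an inhibitor that also takes part in the activation of proMMP-2 at the cell surface, had 28818, 17313 and 17439 per kb. Timp3, an inhibitor that binds to the extracellular matrix and blocks ADAM17 as well as MMPs, followed with 8369, 7326 and 7356 per kb. Together Timp2 and Timp3 took 63.26, 55.85 and 53.4% of the reads of the 47 genes. Next in level were Adamts1, a protease for versican and aggrecan, Adam10, a principal sheddase of the endothelium, Adamts4, another proteoglycan-cleaving protease, and Adam15 and Adam9, which are membrane-bound. MMP transcripts were lower: the most abundant by the mean of the libraries were Mmp3 (stromelysin-1) at 531 to 1270 per kb and Mmp11 (stromelysin-3) at 299 to 1293 per kb. Mmp2 (gelatinase A), made by many endothelial cultures, had 36.0 to 44.6 per kb.

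**Figure D1:**
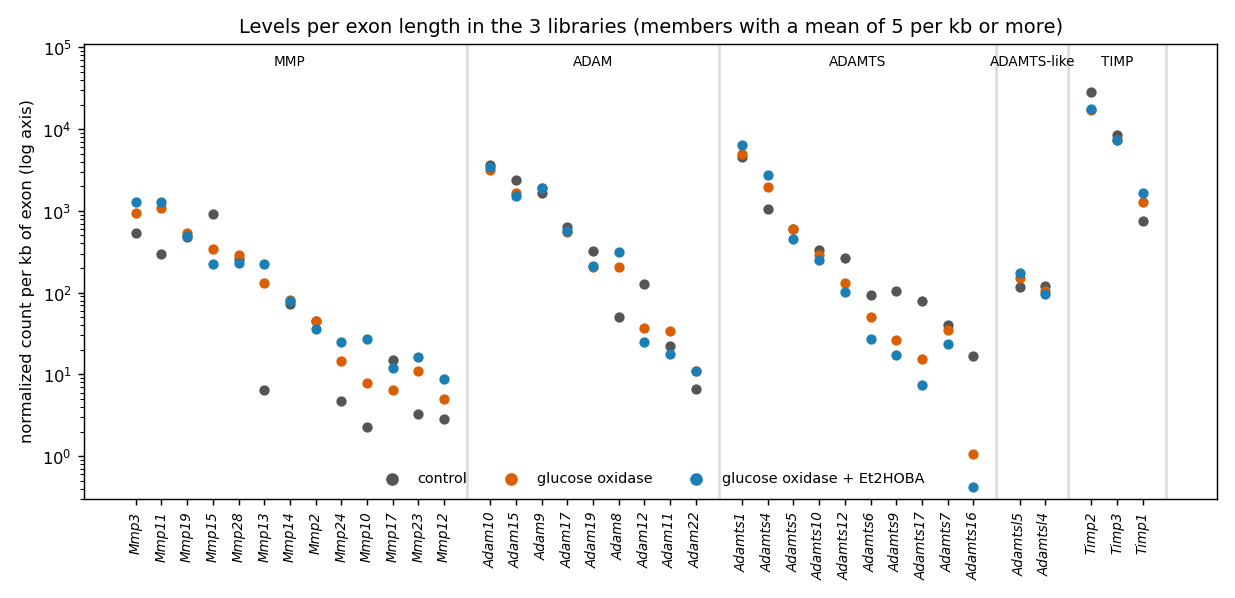
Normalized count per kb of exon (log axis) of the members whose mean over the libraries was at least 5 per kb, ordered by that mean within each family; each point is 1 library. Timp2 and Timp3 lie above the other members, and the grey control points of Mmp13 and Mmp11 lie below both coloured points while those of Mmp15, Adamts9 and Adamts17 lie above both.

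Ratios between libraries are log2 ratios of normalized count plus 10, a scale that understates the change of low genes, and a gene was counted as different at a ratio of 1 or more in either direction. Between the glucose oxidase and control libraries, 13 of the 47 genes (27.7%) passed this limit, 5 higher and 8 lower after glucose oxidase. The background was 12.7% of all listed genes and 9.30% of protein-coding genes. The 47 genes had a median log2 ratio of -0.14, beside 0.04 over all protein-coding genes. MMPs were mostly on the higher side (4 of 13 higher, 2 lower, median 0.61), and the ADAMTS proteases on the lower side (none of 11 higher, 4 lower, median -0.19). The ADAMs had 1 of 15 higher and 1 lower, the ADAMTS-like genes none of 4, and the TIMPs 1 of 4 lower. The count of 13 fell to 8 (3 higher, 5 lower) on the scale of the deposited log2 differences. It was 8 (5 higher, 3 lower) among the 33 members that share no 50-base stretch with another gene. Background shares were computed at the main setting only, and not for any alternative given here or below.

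Between the library with Et2HOBA and control, 21 of the 47 genes (44.7%) passed the limit, 10 higher and 11 lower, against a background of 14.7% of all listed genes and 16.6% of protein-coding genes. The median log2 ratio of the 47 was -0.21, beside 0.00 over all protein-coding genes. Of the MMPs, 7 of 13 were higher and 1 was lower (median 1.25). Of the ADAMTS proteases, 1 of 11 was higher and 5 were lower (median -0.72), and of the ADAMs 1 of 15 was higher and 3 were lower (median -0.29). The ADAMTS-like genes had 1 of 4 lower, and the TIMPs 1 of 4 higher and 1 lower. Among the 33 members without a shared stretch 12 passed, 7 higher and 5 lower.

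The library with Et2HOBA was also set against glucose oxidase alone. Et2HOBA was given over 24 h and collection times are not stated, so the scavenger and time in culture cannot be told apart. Only Mmp10 passed the limit, 1 of 47 or 2.13%, against a background of 8.55% of all listed genes and 3.32% of protein-coding genes. The median log2 ratio of the 47 was -0.04, and -0.02 over protein-coding genes. This count rests on the scale for low genes: with a pseudocount of 1 in place of 10 it was 10, of which 2 were higher and 8 lower, and on the scale of the deposited differences it was 0. These 3 comparisons share libraries, so the values of a gene in them are given side by side and are not independent of each other.

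**Figure D2:**
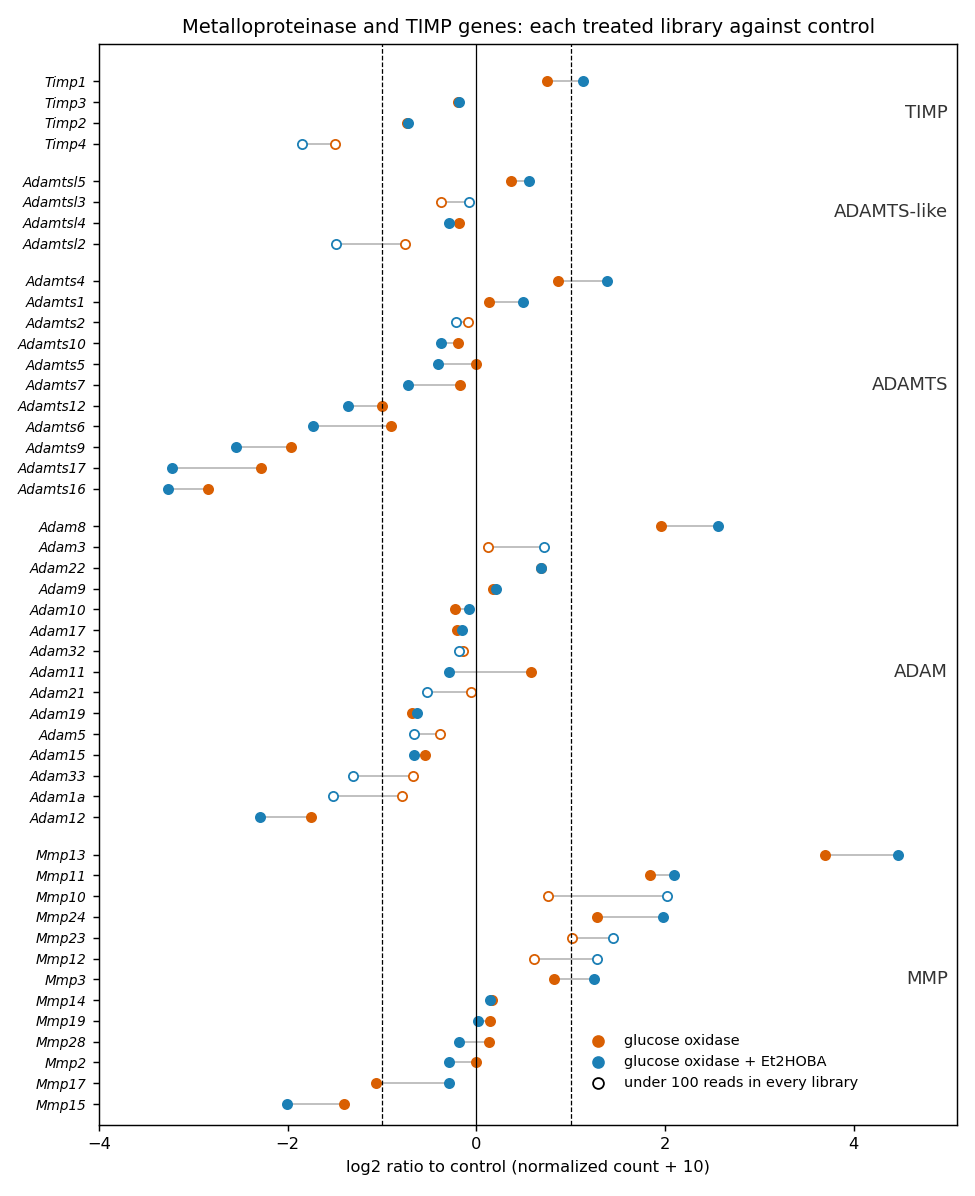
Log2 ratio to control (normalized count plus 10) of all 47 genes, by family, for the glucose oxidase library and the library with Et2HOBA; open points mark genes under 100 reads in every library and dashed lines the limit of 1. Mmp13 lies farthest to the right at 3.70 and 4.47, and Adamts16 farthest to the left at -2.85 and -3.27.

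Among the MMPs, Mmp13 and the other listed protein-coding MMPs near it on chromosome 9 lay above control. Mmp13 (collagenase-3, which cleaves fibrillar collagen; ENSMUSG00000050578.10, chromosome 9, 7272514 to 7283331) had 18, 334 and 620 reads. Its control count was low and both treated libraries stood far above it. The normalized count was 19.8-fold that of control after glucose oxidase (95% interval 12.4 to 33.9) and 34.2-fold with Et2HOBA (21.5 to 58.1), where intervals, here and below, are exact (Clopper-Pearson), come from the read counts of a pair of libraries and cover counting error only. The log2 ratios of 3.70 and 4.47 compare with 1.79 and 3.26 for Mmp13 in the authors' deposited table, which is on another scale. Mmp3, which degrades basement membrane proteins and activates other proMMPs (ENSMUSG00000043613.8, chromosome 9, 7445822 to 7455975), had 987, 1640 and 2376 reads. It passed the limit only in the library with Et2HOBA, where its normalized count was 2.39-fold that of control (2.22 to 2.58) and its log2 ratio 1.25; after glucose oxidase alone the log2 ratio was 0.82.

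Mmp12 (macrophage elastase) and Mmp10 (stromelysin-2) are the other listed protein-coding MMPs of this cluster. They are named here because of their position, after their values were seen. The cluster holds further MMP genes that were not analysed here, such as Mmp1b, whose exons overlap those of Mmp12 on the opposite strand. Mmp12 (chromosome 9, 7344381 to 7369499) had 21, 35 and 66 reads and log2 ratios of 0.61 and 1.28. Mmp10 (chromosome 9, 7502352 to 7510240) had 4, 13 and 48 reads and log2 ratios of 0.76 and 2.02, with 1.26 between the treated libraries. In both genes the library with Et2HOBA had the most reads and control the fewest. Mmp10 had under 5 reads in control, so it was listed only through its treated libraries. An MMP gene under 5 reads in every library was not listed, so a shared direction of the listed ones is in part set by the listing. Of the 50-base stretches of Mmp10 and Mmp3, 8.37 and 8.39% occur in another gene, so the few Mmp10 reads are uncertain by the way the counting treated shared reads. Mmp1a, annotated as a polymorphic pseudogene and lying between Mmp3 and Mmp10, had 10, 9 and 3 reads. The 4 MMPs span 237.73 kb. Within 1 Mb on either side lay 8 other listed protein-coding genes (Pdgfd, Dync2h1, Dcun1d5, Tmem123, Birc2, Birc3, Yap1 and Cfap300), and none of them passed the limit with Et2HOBA against control. Their log2 ratios ran from -0.64 (Birc3) to 0.53 (Dcun1d5). Over all protein-coding genes 16.6% passed in that comparison, and 8 genes are too few to tell none from that share.

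**Figure D3:**
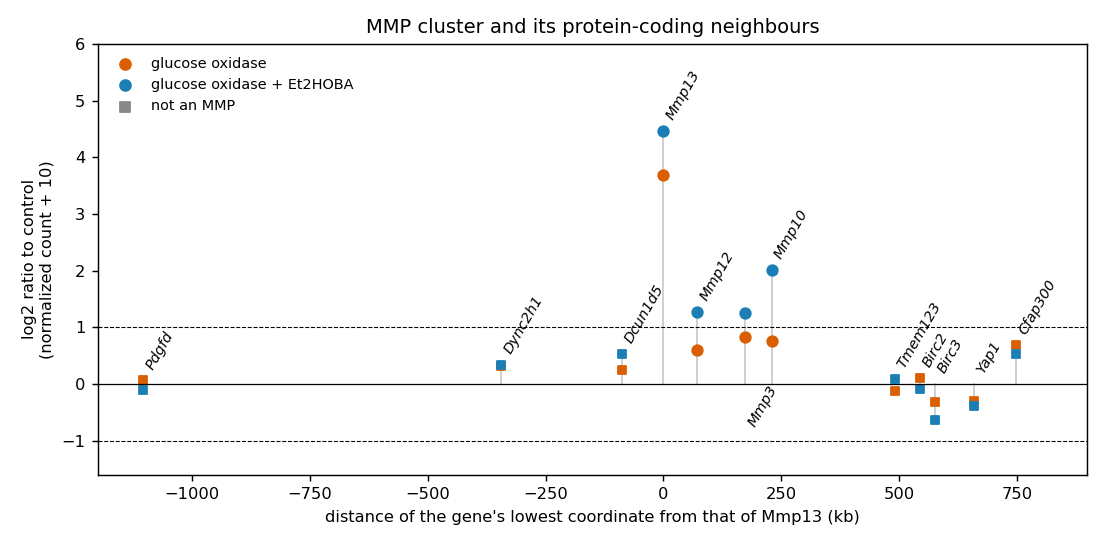
Log2 ratio to control (normalized count plus 10) of the 4 listed protein-coding MMP genes of the chromosome 9 cluster (circles) and their 8 listed protein-coding neighbours (squares), against the distance in kb of each gene's lowest coordinate from that of Mmp13. With Et2HOBA the 4 MMPs lie between 1.25 and 4.47, while the neighbours stay between the dashed lines at 1 and -1. Of all protein-coding genes, 16.6% lay at or beyond these lines with Et2HOBA.

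The start regions of these 4 genes are shown because an AP-1 motif, the site bound by Fos and Jun dimers, lies close to each. The 120 bases before the start are given on the plus strand from the RefSeq promoter table (GRCm38.p6), with the motif TGANTCA in capitals and all else in lower case. For Mmp12 the table holds a pair of starts 2977 bases apart, and the motif lies before the downstream start only, which is the stretch shown.
Mmp13, chr9:7272394-7272513: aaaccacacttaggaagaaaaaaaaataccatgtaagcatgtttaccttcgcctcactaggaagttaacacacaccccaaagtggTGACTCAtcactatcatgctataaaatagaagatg
Mmp12, chr9:7347254-7347373: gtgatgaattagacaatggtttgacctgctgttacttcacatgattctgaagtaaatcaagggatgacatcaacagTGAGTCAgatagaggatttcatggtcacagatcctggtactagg
Mmp3, chr9:7445702-7445821: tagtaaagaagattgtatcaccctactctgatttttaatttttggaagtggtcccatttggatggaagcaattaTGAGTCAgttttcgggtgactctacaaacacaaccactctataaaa
Mmp10, chr9:7502222-7502341: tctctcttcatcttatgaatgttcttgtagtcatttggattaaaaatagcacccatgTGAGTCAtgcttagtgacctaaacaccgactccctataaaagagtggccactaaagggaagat
The motif began 35 bases before the start of Mmp13, 44 before that of Mmp12, 46 before that of Mmp3 and 63 before that of Mmp10.

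Promoter windows of 300 bases (250 before to 50 after the start) were found for 31 of the 47 genes, 35 windows in all, and were searched on both strands. TGANTCA lay in 5 member windows (14.3%), beside 7.81% of all 32851 windows. The fifth gene was Adam19, at 131 bases before its start. The antioxidant response element core TGACNNNGC, the kind of site that NRF2 binds, lay in 6 member windows (17.1%), those of Adamts2, Adamtsl5, Mmp15, Mmp24, Timp2 and Timp4, beside 12.4% of all windows; it shares its opening letters TGA with the AP-1 motif. The ATF4-CHOP core TTGCATCA lay in none of the member windows and in 0.895% of all windows. TATAAA, the letters of the TATA box core, lay in 6 member windows (17.1%), those of the 4 cluster genes, Adamts1 and Adamtsl2, and in 13.6% of all windows. It began 7 bases before the start in Mmp3, 16 in Mmp13, 29 in Mmp10, 30 in Adamtsl2 and 32 in Adamts1. In Mmp12 it lay 4 to 9 bases after the downstream start. These matches describe the letters of the windows and not binding.

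Outside the cluster, Mmp11 carried the most reads of the MMPs above control. Mmp11 (ENSMUSG00000000901.17, chromosome 10, 75923222 to 75936496), a furin-activated MMP that is better known from stromal cells, had 857, 2891 and 3731 reads. Its normalized count was 3.61-fold that of control after glucose oxidase (3.34 to 3.90) and 4.33-fold with Et2HOBA (4.02 to 4.66). Mmp24, a membrane-type MMP, had 23, 66 and 122 reads and log2 ratios of 1.28 and 1.98, while the authors' deposited table gives 0.48 for glucose oxidase. Mmp23, a small type II membrane MMP, had 8, 25 and 40 reads with log2 ratios of 1.02 and 1.45 and was named after its values were seen. In each of these genes both treated libraries lay above control, at low counts for Mmp24 and Mmp23. The fibroblast marker Pdgfra and the macrophage marker Cd68 were also higher in both treated libraries, with log2 ratios of 3.60 and 4.58 for Pdgfra and of 1.15 and 1.75 for Cd68, while the macrophage marker Lyz2 was lower at -1.10 and -1.04. Their part in the MMP values was not tested, and Col1a1 and Csf1r stayed at or below 30 reads in every library.

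Mmp15 went the other way. This membrane-type MMP (ENSMUSG00000031790.8, chromosome 8, 95352268 to 95375080) was the most abundant MMP in control by reads and per kb, with 5066 reads, and had 1786 reads after glucose oxidase and 1258 with Et2HOBA. Its normalized count was 0.377 of control (0.357 to 0.398) and 0.247 of control (0.232 to 0.263), and both treated libraries lay far below control. Mmp17, a glycolipid-anchored MMP, had 103, 41 and 83 reads; it was lower than control after glucose oxidase, with a log2 ratio of -1.07, but at -0.29 with Et2HOBA. In the authors' deposited table Mmp17 had a value of -0.46 for glucose oxidase. The remaining MMPs stayed within the limit in every comparison: Mmp14, the membrane-type collagenase that activates proMMP-2, had 443, 467 and 494 reads, and Mmp19, Mmp28 and Mmp2 had log2 ratios between -0.29 and 0.15 against control.

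The make-up of the MMP transcripts differed between libraries as well as their sum. Summed over the 13 genes, MMP levels were 2632, 3483 and 3932 per kb. Without division by exon length the libraries differed less, with summed normalized counts of 10154.3, 10698.5 and 11238.1 and summed reads of 10479, 10328 and 11672. Mmp15 held 34.6% of the control sum, 9.84% after glucose oxidase and 5.71% with Et2HOBA. Mmp11 held 11.4, 31.0 and 32.9%, and the 4 chromosome 9 cluster genes named above 20.6, 31.2 and 38.9%, in the same order. Without Mmp3 and Mmp11 the MMP sum was 1802, 1461 and 1369 per kb, lower in the treated libraries than in control. Both genes left out were higher in the treated libraries, while Mmp15 was kept at 910, 343 and 224 per kb. The direction of this reduced sum therefore rests on which genes are left out.

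The TIMPs did not move as a block. Timp1, an inducible secreted inhibitor (ENSMUSG00000001131.11, chromosome X, 20870166 to 20874735), had 689, 1092 and 1528 reads. Its normalized count was 1.69-fold that of control (1.54 to 1.87) and 2.20-fold (2.01 to 2.41), and its log2 ratio of 1.13 with Et2HOBA lay just past the limit, or at 0.98 when libraries were scaled by their total counts. Timp2 (ENSMUSG00000017466.9, chromosome 11, 118301069 to 118355740) had 115867, 65114 and 70565 reads, and its normalized count was 0.601 of control (0.595 to 0.607) and 0.605 of control (0.599 to 0.611). Its log2 ratios of -0.74 and -0.72 stayed within the limit, although Timp2 accounted for the largest loss of reads of any member. Timp3 had 70337, 57593 and 62218 reads and log2 ratios of -0.19 in both comparisons with control; 21.3% of its exonic bases overlap Syn3 on the opposite strand. Timp4, an inhibitor best known from heart, had 34, 5 and 2 reads and log2 ratios of -1.50 and -1.85, beside -0.49 and -1.02 in the authors' deposited table, and it rests on few reads in every library.

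The summed TIMP level was 37945, 25913 and 26452 per kb. Its ratio to the summed MMP level was 14.4, 7.44 and 6.73. Per kb, both parts of the ratio differed between control and the treated libraries, the TIMP sum lower and the MMP sum higher. The lower TIMP sum lay mostly in Timp2, which held 75.9, 66.8 and 65.9% of it and stayed within the limit. Timp1 was higher in both treated libraries, at 752, 1274 and 1657 per kb. Without division by exon length the summed normalized TIMP counts were 181134, 128246 and 129320. The MMP sum differed less between libraries without division by exon length, as given above. These are transcript levels, and proenzyme activation and protein amounts were not measured.

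**Figure D4:**
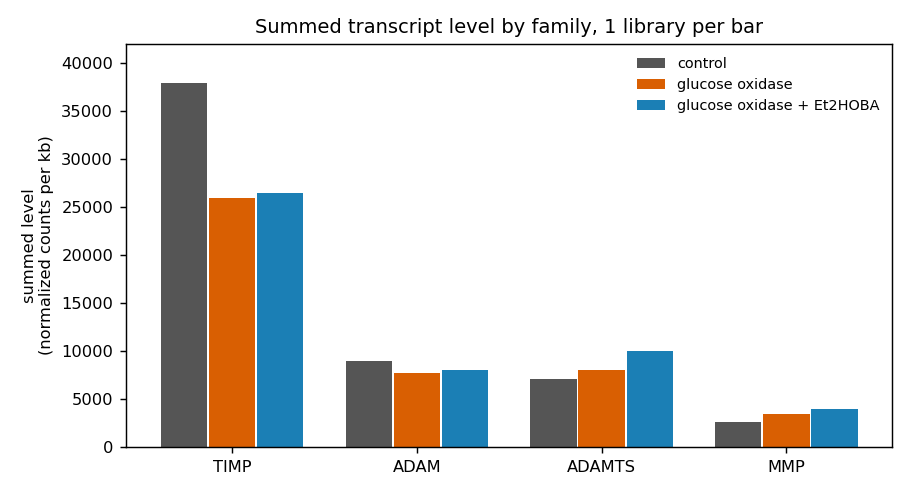
Summed normalized counts per kb of exon of the TIMP, ADAM, ADAMTS and MMP genes in each library, 1 library per bar and no error bars; the 4 ADAMTS-like genes are left out. The TIMP bar is highest in control at 37945, and the MMP and ADAMTS bars are highest with Et2HOBA at 3932 and 10011.

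The general sheddases of the ADAM family stayed near control. Adam10 (ENSMUSG00000054693.14, chromosome 9, 70678997 to 70780229), which cleaves Notch receptors and VE-cadherin, had 18645, 14910 and 17724 reads, and log2 ratios of -0.23 and -0.08. Adam17, the TNF-converting enzyme, is named for its role after its values were seen; it had 4687, 3789 and 4231 reads and log2 ratios of -0.21 and -0.16. Adam9 had 7049, 7464 and 8171 reads and log2 ratios of 0.18 and 0.20. Adam15, a disintegrin-bearing ADAM of endothelial junctions, was lower in both treated libraries but within the limit, with 15202, 9762 and 9646 reads and log2 ratios of -0.54 and -0.66. Adam15 overlaps an antisense gene over 20.6% of its exonic bases. None of these 4 abundant genes passed the limit in any comparison.

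Adam8 and Adam12 stood apart from the other ADAMs. Adam8, a protease best known from leukocytes that cleaves adhesion molecules (ENSMUSG00000025473.16, chromosome 7, 139978932 to 139992562), had 244, 917 and 1496 reads. Its normalized count was 4.02-fold (3.48 to 4.65) and 6.09-fold (5.32 to 7.0) that of control. Adam12, which sheds HB-EGF (ENSMUSG00000054555.11, chromosome 7, 133883199 to 134232146), had 1387, 377 and 276 reads, and its normalized count was 0.291 of control (0.259 to 0.326) and 0.198 of control (0.173 to 0.225). The treated libraries thus lay above control for Adam8 and below it for Adam12. Of the 50-base stretches of Adam12, 3.59% occur in another gene. Of the leukocyte and macrophage markers, Cd68 was also higher in both treated libraries and Lyz2 lower, as given above, and their part in the Adam8 value was not tested.

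The other ADAMs were low or within the limit. Adam19 had 2397, 1395 and 1554 reads and log2 ratios of -0.68 and -0.63. Adam11 and Adam22, which lack protease activity and serve as neuronal adhesion partners, had 105 to 187 and 97 to 163 reads, with log2 ratios to control between -0.29 and 0.69. Adam1a, at 59, 28 and 14 reads, and Adam33, at 30, 14 and 6, were lower with Et2HOBA by log2 ratios of -1.52 and -1.31. Every 50-base stretch of Adam1a occurs in another gene, so its reads could not be assigned with certainty. Adam3, Adam5, Adam21 and Adam32, which are mainly testis genes, had 15 reads or fewer in every library.

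Among the proteoglycan-cleaving ADAMTS proteases, Adamts4 was higher and Adamts1 was the most abundant. Adamts4 (ENSMUSG00000006403.13, chromosome 1, 171250421 to 171260637) had 5260, 8992 and 13855 reads. Its normalized count was 1.83-fold (1.77 to 1.89) and 2.62-fold (2.54 to 2.70) that of control, and it passed the limit with Et2HOBA only. Adamts1 had 24656, 25335 and 34954 reads and log2 ratios of 0.14 and 0.49, and it made up 63.4, 61.6 and 63.4% of the summed ADAMTS level. Adamts5, the neighbour of Adamts1 on chromosome 16, had 6760, 6315 and 5129 reads and log2 ratios of 0.00 and -0.41. Adamts9, which also cleaves versican and aggrecan (ENSMUSG00000030022.14, chromosome 6, 92772699 to 92943492), was lower, with 1628, 382 and 272 reads and 0.251 (0.224 to 0.281) and 0.166 (0.145 to 0.189) of the control level. The family's versican-cleaving genes thus included values on both sides of control.

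On the log2 scale with the pseudocount of 10, the lowest ratios to control of the 47 genes were those of the ADAMTS proteases Adamts17 and Adamts16; as a plain fold, Timp4 at 0.157 and 0.0584 of control lay below Adamts17, and Adam5 had 6, 2 and 0 reads. Adamts17, a protease linked to fibrillin microfibrils (ENSMUSG00000058145.16, chromosome 7, 66839735 to 67153171), had 637, 115 and 59 reads, or 0.193 (0.157 to 0.236) and 0.0920 (0.0693 to 0.120) of the control level. Adamts16 (ENSMUSG00000049538.14, chromosome 13, 70727802 to 70841811) had 118, 7 and 3 reads, or 0.0634 (0.0250 to 0.135) and 0.0253 (0.00514 to 0.0756) of the control level. The log2 ratios of Adamts16, -2.85 and -3.27, compare with -1.08 and -1.95 in the authors' deposited table, and for Adamts17 the pair is -2.28 and -3.23 against -1.50 and -2.57 in the authors' deposited table. Adamts12, which cleaves COMP, had 3001, 1395 and 1167 reads and log2 ratios of -1.0 and -1.36, the first of them at the limit and at -0.92 in the authors' deposited table. Adamts6 had 758, 375 and 222 reads and log2 ratios of -0.90 and -1.73. All 4 genes had their highest level in control and their lowest with Et2HOBA. For Adamts16 the order of the treated libraries is not resolved. Its 3 reads with Et2HOBA are at the floor, and the fold between the treated libraries was 0.398 (0.0665 to 1.74). Adamts10, a fibrillin-associated protease, and Adamts7, which cleaves COMP, had log2 ratios between -0.72 and -0.17, and Adamts2, a procollagen N-proteinase, had 9 to 12 reads.

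ADAMTS-like proteins resemble ADAMTS proteases without the catalytic part. Adamtsl4, which binds fibrillin, had 516, 423 and 422 reads, and Adamtsl5 had 576, 698 and 856 reads. Neither passed the limit, with log2 ratios of -0.19 and -0.29 for Adamtsl4 and of 0.37 and 0.55 for Adamtsl5. Adamtsl2 had 27, 11 and 3 reads and log2 ratios of -0.76 and -1.49, beside -0.24 and -0.81 in the authors' deposited table, and Adamtsl3 had 10, 5 and 9 reads.

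Of 27 genes listed as activators, receptors and other inhibitors of these proteases, 20 were analysed. Against control, 4 were higher and 1 lower after glucose oxidase (median log2 ratio 0.10), and 5 higher and none lower with Et2HOBA (median 0.04). The background in these comparisons was 12.7 and 14.7% of all listed genes, and 9.30 and 16.6% of protein-coding genes. Plaur, the urokinase receptor, had 837, 2944 and 4678 reads, Cd44, a docking receptor for MMPs, 999, 2030 and 5019, and Lrp1, which clears MMPs and TIMPs from the cell surface, 3271, 8897 and 13804. Serpinb2, a serine protease inhibitor, had 0, 9 and 41 reads. Thbs1 (thrombospondin-1) had 677, 298 and 541 reads and log2 ratios of -1.06 and -0.33. Between the treated libraries 3 were higher with Et2HOBA and none lower, and Serpinb2 and Cd44 were among them, with log2 ratios of 1.36 and 1.20. The background there was 8.55% of all listed genes and 3.32% of protein-coding genes. The urokinase gene Plau, the membrane inhibitor Reck and the proprotein convertase Furin stayed within the limit. Their log2 ratios to control were -0.05, 0.06 and -0.65 after glucose oxidase, and -0.26, -0.05 and -0.84 with Et2HOBA. They were named for their roles after their values were seen.

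Of 37 genes listed as partners and substrates of the ADAM sheddases, 34 were analysed, with 5 higher and 4 lower after glucose oxidase (median -0.08) and 8 higher and 4 lower with Et2HOBA (median 0.03). Beside these counts, 12.7 and 14.7% of all listed genes and 9.30 and 16.6% of protein-coding genes passed the limit. Ligands of the EGF receptor family led the higher side. Hbegf had 297, 801 and 2708 reads and log2 ratios of 1.50 and 3.14, and 1.64 between the treated libraries. Areg had 21, 82 and 179 reads, Btc 120, 477 and 683, and Nrg1 343, 834 and 1637, with log2 ratios to control between 1.35 and 2.59. On the lower side were Cx3cl1, the membrane-bound chemokine fractalkine, with 6258, 1783 and 1067 reads and log2 ratios of -1.71 and -2.55, and Tek, the angiopoietin receptor Tie2 and an endothelial marker, with 6786, 2877 and 1688 reads and log2 ratios of -1.14 and -2.01. The ADAM17 regulators Rhbdf1 and Rhbdf2 were named for their role after their values were seen. They had log2 ratios to control of 0.12 and -0.05 after glucose oxidase, and of -0.03 and 0.29 with Et2HOBA.

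Of 24 genes listed as matrix substrates, 21 were analysed. Against control, 3 were higher and 3 lower after glucose oxidase (median -0.40), and 4 higher and 3 lower with Et2HOBA (median -0.26). The background was 12.7 and 14.7% of all listed genes, and 9.30 and 16.6% of protein-coding genes. Between the treated libraries only Col3a1 passed the limit, lower with Et2HOBA, and it rests on 2, 12 and 0 reads. The background there was 8.55% of all listed genes and 3.32% of protein-coding genes. Nid1, a basement membrane linker protein, had 18051, 130867 and 200647 reads and log2 ratios of 2.95 and 3.46. Lamb1, a laminin chain, had 6517, 13302 and 17837 reads, and Vcan, the versican cleaved by ADAMTS proteases, 216, 473 and 514. The elastic fibre genes lay below control: Eln (elastin) had 1636, 238 and 140 reads and log2 ratios of -2.64 and -3.46, and Fbn1 (fibrillin-1) 109, 26 and 14 reads and -1.65 and -2.30. Vwf, the substrate of ADAMTS13 and also one of the endothelial markers, had 46607, 21567 and 12545 reads and log2 ratios of -1.02 and -1.90.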

How the data were processed

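Polyadenylated RNA of 3 libraries, 1 for each of 3 groups, was sequenced from stranded libraries, per the labels' protocols. STAR, featureCounts and mm10 are named in the submitters' processing notes; the strand setting of the counting is not given in the sources used here. The authors deposited raw read counts for control and for glucose oxidase plus Et2HOBA, and log2 differences for glucose oxidase against control. Glucose oxidase counts were recovered by inverting the variance-stabilizing form (inverse hyperbolic sine of the square root) that those log2 differences follow: 100% of 18275 genes matched by symbol came within 0.01 of a whole read, against 3.305% with 1 read added to control, and 12 further genes were placed by whole reads.

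Size factors by the median-of-ratios method (1.03 for control, 0.965 for glucose oxidase, 1.04 with Et2HOBA) scaled the counts. Log2 ratios used a pseudocount of 10 and a limit of 1; folds used none, with exact Clopper-Pearson intervals at 95%. Per kb values used exon lengths of GENCODE M21 (GRCm38), where all 47 genes were matched by gene ID. The floor was 3 reads. With 1 library per group no count model was fitted. Python 3.11.15, numpy 2.4.6, pandas 2.3.3 and scipy 1.17.1 were used, and edgeR 4.0.16 for TMM factors. The scripts were tested on simulated data.

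Genes named were all TIMPs, members with at least 100 reads in 1 library and past the limit in at least 1 comparison, the 3 members of each family highest per kb, and at most 6 genes per list past the limit, of which 1 is not reported here; others given by name were chosen after their values were seen. The members and the lists were chosen with earlier results of these data known. Alternatives tried were a pseudocount of 1, TMM factors, total-count scaling, the deposited scale, a mean normalized count of at least 10, members without a shared 50-base stretch and a limit of 0.5.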

Additional observations from a re-analysis of the deposited data

How the results depend on the processing

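The number of members past the limit was 13 (glucose oxidase against control), 21 (with Et2HOBA against control) and 1 (with Et2HOBA against glucose oxidase). In the first comparison it was 8 on the deposited scale, 8 among members without a shared 50-base stretch and 27 at a limit of 0.5, and the median among the members without a shared stretch was -0.0020 instead of -0.14. In the second it was 12 among members without a shared stretch, and total-count scaling, which moved the median of all genes by -0.127, gave a median of -0.34 instead of -0.21. In the third it was 10 with a pseudocount of 1, 2 with total counts, 0 on the deposited scale, 0 without shared stretches and 18 at a limit of 0.5. Fewer members enter where shared stretches are left out; for the other changes the cause was not tested. The share of all genes past the limit was not computed under these alternatives, so their counts have no background beside them. TMM factors and the filter on mean normalized count left all 3 counts as they were.

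For the 27 members named by rule, 324 values were computed under 4 alternatives. None changed sign past the limit, 6 fell inside the limit and 6 passed it. Those that fell inside were, on the deposited scale, Adamts12 (-0.92), Mmp24 (0.48), Timp4 (-0.49) and Mmp17 (-0.46) for glucose oxidase and Adamtsl2 (-0.81) with Et2HOBA, and Timp1 (0.98) with Et2HOBA under total counts. No paired analysis was possible because each group has 1 library and the labels give no replicate numbers; for the same reason no library could be left out. Depth limits mainly the 13 members under 100 reads in every library, where intervals are wide: that of Mmp10 with Et2HOBA ran from 4.37-fold to 45.5-fold of control.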

Other observations

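Values of some other genes of the lists are given here, chosen after they were seen. The EGF receptor ligands Ereg and Tgfa had 229, 348 and 593 reads and 1167, 1864 and 2378 reads, in the same order of libraries, with log2 ratios to control of 1.32 and 1.01 in the library with Et2HOBA. Jag1, a Notch ligand and ADAM substrate, had 5337, 8265 and 20718 reads and log2 ratios of 0.73 and 1.95 to control. Sele, the endothelial adhesion molecule E-selectin, had 854, 1782 and 2226 reads. Dll4, another Notch ligand, had 390, 168 and 194 reads and log2 ratios of -1.08 and -0.98, and Il6ra, a receptor that ADAMs release from the surface, 643, 308 and 258. Lamc1, the laminin chain that pairs with Lamb1, had 13703, 20266 and 29814 reads and a log2 ratio of 1.11 with Et2HOBA. Col4a1, the main basement membrane collagen chain of the list, had 87418, 46463 and 45611 reads and log2 ratios of -0.82 and -0.95, within the limit.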
